A study of Mus musculus with 8 samples.

Results

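Transcripts of 54 genes that build and run the mitotic apparatus were examined in the ventricles of mouse embryos at embryonic day 15.5 (E15.5). The genes were given as a list of symbols by function, drawn up with earlier results of these data known, and all 54 were found among the 53465 gene identifiers of the count table. All 54 also passed the filter on low counts, which left 15580 genes for testing. RNA-seq was done on poly(A) RNA of heart ventricles from 2 genotypes, with 4 libraries each. The first, called *Nrg1GOF* here, combined a Cre driver with an *Nrg1* transgene in Rosa26 that Cre switches on, and the other was wild type (WT). The genotype label spells the mutant as Rosa26Nrg-1;Nkx5.5-Cre, whereas the series title and the study name the driver Nkx2.5-Cre. Neuregulin-1 is a secreted ligand of ErbB receptors, and the driver limits its overproduction to cells of the *Nkx2.5* lineage and their descendants, most of them heart muscle cells. Ventricles were taken whole and not sorted, and the sources used here do not say whether WT embryos carried the driver or the transgene alone.

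Cell division needs several protein machines that act in sequence. CDK1 with cyclin A or B drives entry into mitosis, condensin and topoisomerase II compact the chromosomes, and kinesin motors and microtubule-binding proteins form the bipolar spindle. Kinetochores, built on centromeres marked by the histone variant CENP-A, hold each chromosome on the spindle, and the spindle checkpoint restrains the anaphase-promoting complex (APC/C) until all are attached. Separase then opens cohesin, and the central spindle and a contractile ring split the cell. Most of these genes are transcribed mainly in G2 and mitosis, so that their level in a tissue rises and falls with the share of its cells in division. Ventricular muscle cells still divide in the mouse fetus, in compact myocardium more than in trabeculae.

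Library totals lay between 8038641 and 26786039 counts, and the shallowest was *Nrg1GOF* library 4. A count of 3 in a library corresponded to 0.112 to 0.373 counts-per-million (CPM), and the lowest count of any of the 54 genes in any library was 67, for *Cenpk*. *Nrg1* itself was at 60.7, 59.7, 63.7 and 63.1 CPM across *Nrg1GOF* libraries 1 to 4 and 4.17, 4.42, 3.07 and 4.47 CPM across WT libraries 1 to 4, and each *Nrg1GOF* library was far above each WT library. Counts do not separate transgene from endogenous *Nrg1*. WT libraries 1 and 2 resembled each other, as did WT libraries 3 and 4 (median chi-square per gene 1.02 and 0.869, against 0.455 from counting alone and 2.61 to 3.14 between these pairs). Of the *Nrg1GOF* libraries 2 and 4 gave the lowest value (1.07), and the other pairs gave 1.70 to 3.05. Chi-square was taken on counts not matched for depth and library 4 was the shallowest, so the closeness of this pair is uncertain. No label names what sets the WT pairs apart, and none says that the libraries of a group came from separate embryos, so p-values measure the spread between these samples, which may be technical in part. Markers of ventricular cardiomyocytes such as *Myh7* were high in all 8 libraries, and no marker of the cell types checked was at 0 in all of them.

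Most of the mitotic genes were lower in *Nrg1GOF*, with log2 fold changes from -0.56 (SE 0.050) for *Hmmr* to -0.20 (SE 0.049) for *Cdk1* among those that passed the test. Of the 54 genes, 45 (83.3%) were called lower and 0 were called higher, where called means an adjusted p under 0.05 in the edgeR quasi-likelihood test over all tested genes. Among all 15580 tested genes 28.7% were called, 12.8% lower and 15.9% higher, 1993 against 2474 genes. With libraries scaled by their total alone the split was 1521 against 2874 genes, and 43 of the 54 mitotic genes were lower and 0 higher. A log2 fold change below 0 was found for 53 of the 54 genes, against 51.7% of all tested genes, and the exception was *Pttg1*. All 4 *Nrg1GOF* libraries lay below all 4 WT libraries in 46 of the 54 genes (14.1% of all tested genes), and the groups overlapped in the other 8. The median log2 fold change of the 54 genes was -0.36, a level that fell by 22.2%, beside a median of -0.012 over all tested genes. The genes called lower in the whole transcriptome had a median of -0.37. The lowest value, -0.56 for *Hmmr*, lay at the level of the 5th percentile of all tested genes, and 0 of the 54 genes passed a log2 fold change of -1.

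The fall was seen in each *Nrg1GOF* library. Relative to the WT mean, the log2 level averaged over the 54 genes was -0.34, -0.39, -0.28 and -0.39 in *Nrg1GOF* libraries 1 to 4 and -0.026, -0.030, 0.039 and 0.017 in WT libraries 1 to 4. Between 52 and 53 of the 54 genes were below their WT mean in each *Nrg1GOF* library. Summed over the 54 genes, CPM was 4185 to 4518 in *Nrg1GOF* and 5557 to 5655 in WT. *Nrg1GOF* library 3 was nearest to WT, and the shallow library 4 was not apart from library 2. When all libraries were thinned to the total of library 4, 45 genes were called lower, with *Cdc25c* gained and *Cenpe* lost, and without library 4 the count was 43. In these fits 10.7% and 11.6% of all tested genes were called lower.

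**Figure D1:**
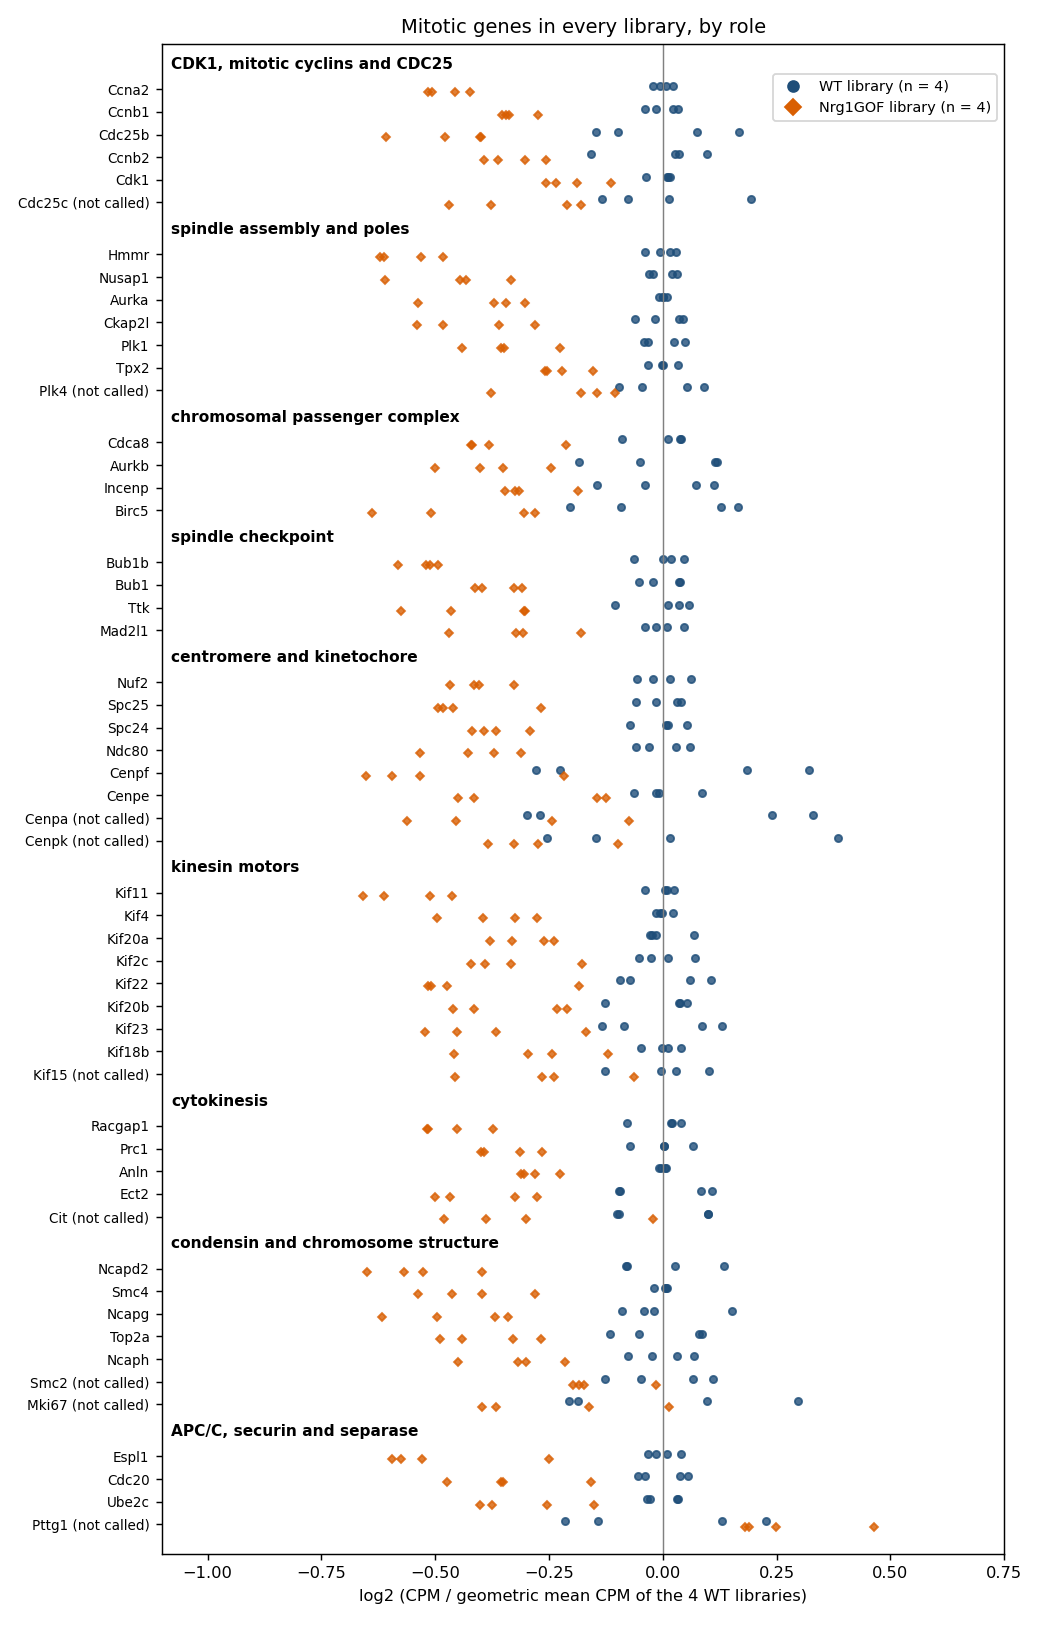
Level of each of the 54 mitotic genes in each library, as log2 of CPM over the geometric mean of the 4 WT libraries (x axis), with genes in rows by role; circles are WT and diamonds *Nrg1GOF* libraries. In 46 rows all diamonds lie to the left of all circles, and *Pttg1* is the row whose diamonds lie furthest to the right.

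**Figure D2:**
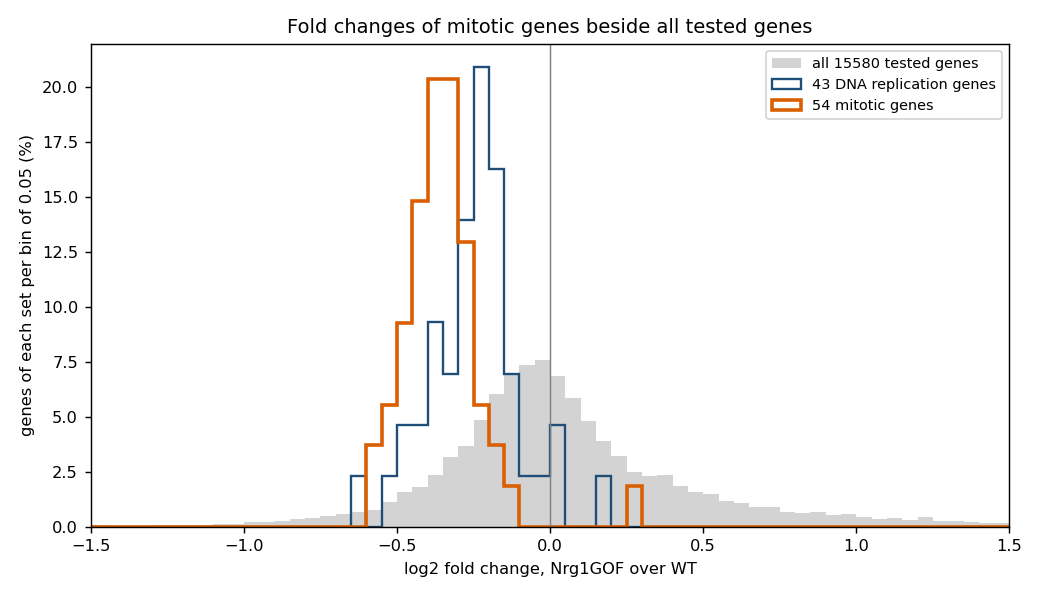
Distribution of log2 fold changes, *Nrg1GOF* over WT (x axis), as the percentage of each set per bin (y axis), for all 15580 tested genes, 43 DNA replication genes and the 54 mitotic genes. The mitotic genes are centred at -0.36, the DNA replication genes at -0.23 and all tested genes near 0.

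In bulk tissue, fewer cells in division and less mitotic RNA per dividing cell cannot be told apart. Transcripts of several cell types moved with genotype as well. Among 7 markers of ventricular cardiomyocytes, 4 were lower and 0 higher, and their summed level was 29083 to 36393 CPM in *Nrg1GOF* against 38697 to 40769 CPM in WT. Of 8 markers of epicardium and fibroblasts 7 were higher and 1 lower. Their sum was 3545 to 4710.5 CPM in *Nrg1GOF*. It was 2615 and 2622 CPM in WT libraries 1 and 2, and 2011 and 2056.5 CPM in WT libraries 3 and 4. Of 8 macrophage markers 8 were higher (115 to 136 CPM against 55.8 to 60.8 CPM). Endothelial and endocardial markers were higher in 3 of 7 (1147 to 1202 CPM against 1052 to 1112 CPM) and atrial markers in 4 of 6 (2917 to 3429 CPM against 2332 to 2575 CPM). Of 10 red blood cell markers 0 were called, with 5452 to 8920 CPM in *Nrg1GOF*, 13061 and 12216 CPM in WT libraries 1 and 2 and 5521 and 4432 CPM in WT libraries 3 and 4. Mitochondrially encoded genes took 3.10% to 4.35% of counts in *Nrg1GOF*, 4.30% and 4.48% in WT libraries 1 and 2 and 5.78% in WT libraries 3 and 4. The part of these differences in the fall of the mitotic genes was not tested.

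Relative to gene length, the most abundant of the 54 transcripts in WT were those of *Ccna2* (68.8 CPM per kb of exon), *Smc4* (61.5), *Cdc20* (50.1), *Top2a* (47.4) and *Ube2c* (47.0). The least abundant were *Cit* (1.92), *Cenpk* (2.12) and *Cdc25c* (2.97), 3 of the 9 genes that were not called. Across the 54 genes the log2 fold change showed little relation to the log2 of the WT mean CPM (Spearman's rho -0.20), transcript length (-0.021) or GC content (0.026). WT values enter both terms of the first coefficient. These coefficients describe genes measured in the same libraries and are no test.

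Many promoters of G2 and mitosis genes hold CCAAT boxes, bound by NF-Y, and a cell cycle genes homology region (CHR, TTTGAA or TTTAAA), bound by the MuvB core of the DREAM and B-MYB complexes. The promoters of the 54 genes were searched for these letters on both strands. The genes were listed by their role in mitosis, so a high share of these motifs describes the list. It does not bear on the change with genotype. RefSeq promoter windows (GRCm38.p6, 250 bases before to 50 after the start) were found for 46 of the 54 genes, 50 windows in all. The 8 genes with no window used here were *Ccna2*, *Cdc25c*, *Tpx2*, *Aurkb*, *Incenp*, *Spc24*, *Kif20a* and *Smc4*. In 38 of the 46 genes a start lay within 100 bases of the 5′ edge of the gene model used for the other coordinates.

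Windows are shown for the gene with the lowest p in each role group, in the 8 groups where one was listed. They run 5′ to 3′ in the orientation of the gene, and the same genes are given in full below. Capitals mark the CCAAT box and the 2 CHR forms just given, each on either strand.

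*Hmmr* (chr11:40733388-40733687, minus strand): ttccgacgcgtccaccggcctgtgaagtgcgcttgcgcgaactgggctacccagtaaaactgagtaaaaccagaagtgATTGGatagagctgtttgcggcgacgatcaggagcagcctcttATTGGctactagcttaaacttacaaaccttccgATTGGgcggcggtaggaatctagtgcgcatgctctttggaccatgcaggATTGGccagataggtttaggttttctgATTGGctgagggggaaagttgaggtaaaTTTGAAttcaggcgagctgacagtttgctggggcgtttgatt

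*Cdca8* (chr4:124936868-124937167, minus strand): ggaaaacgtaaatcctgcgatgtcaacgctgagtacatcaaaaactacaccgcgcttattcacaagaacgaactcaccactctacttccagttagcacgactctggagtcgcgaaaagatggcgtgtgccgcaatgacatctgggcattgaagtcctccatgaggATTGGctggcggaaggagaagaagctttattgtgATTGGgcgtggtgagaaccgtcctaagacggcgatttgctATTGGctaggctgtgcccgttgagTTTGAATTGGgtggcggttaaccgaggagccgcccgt

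*Bub1b* (chr2:118597961-118598260, plus strand): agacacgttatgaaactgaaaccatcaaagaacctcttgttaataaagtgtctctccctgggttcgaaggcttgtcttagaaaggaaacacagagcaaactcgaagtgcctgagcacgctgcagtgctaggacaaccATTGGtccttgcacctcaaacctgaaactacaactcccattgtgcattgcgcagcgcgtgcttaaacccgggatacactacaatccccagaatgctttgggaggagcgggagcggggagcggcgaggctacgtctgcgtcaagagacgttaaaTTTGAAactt

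*Nuf2* (chr1:169531415-169531714, minus strand): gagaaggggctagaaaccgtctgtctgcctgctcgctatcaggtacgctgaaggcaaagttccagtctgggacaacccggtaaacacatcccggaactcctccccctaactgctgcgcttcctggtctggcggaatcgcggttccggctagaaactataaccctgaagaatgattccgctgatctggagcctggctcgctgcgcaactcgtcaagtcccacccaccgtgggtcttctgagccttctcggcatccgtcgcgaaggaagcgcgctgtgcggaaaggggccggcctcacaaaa

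*Kif11* (chr19:37376132-37376431, plus strand): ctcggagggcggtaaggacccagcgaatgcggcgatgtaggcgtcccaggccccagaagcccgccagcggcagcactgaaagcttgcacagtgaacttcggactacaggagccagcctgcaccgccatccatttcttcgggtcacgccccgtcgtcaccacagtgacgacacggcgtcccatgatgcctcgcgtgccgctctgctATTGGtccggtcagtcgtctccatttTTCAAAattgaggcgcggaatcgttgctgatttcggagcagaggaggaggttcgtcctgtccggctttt

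*Racgap1* (chr15:99651607-99651906, minus strand): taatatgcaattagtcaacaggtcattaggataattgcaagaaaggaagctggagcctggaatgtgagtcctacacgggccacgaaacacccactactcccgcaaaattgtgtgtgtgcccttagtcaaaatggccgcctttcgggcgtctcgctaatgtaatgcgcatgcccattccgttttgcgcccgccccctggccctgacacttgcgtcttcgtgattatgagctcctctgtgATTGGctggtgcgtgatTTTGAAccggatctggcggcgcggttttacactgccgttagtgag

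*Ncapd2* (chr6:125191537-125191836, minus strand): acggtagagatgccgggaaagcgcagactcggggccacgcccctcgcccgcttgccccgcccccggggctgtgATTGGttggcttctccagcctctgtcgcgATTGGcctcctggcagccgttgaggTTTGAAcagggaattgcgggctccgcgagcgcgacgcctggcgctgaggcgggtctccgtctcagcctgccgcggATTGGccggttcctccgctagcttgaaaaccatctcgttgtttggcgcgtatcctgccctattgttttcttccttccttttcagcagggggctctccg

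*Espl1* (chr15:102296043-102296342, plus strand): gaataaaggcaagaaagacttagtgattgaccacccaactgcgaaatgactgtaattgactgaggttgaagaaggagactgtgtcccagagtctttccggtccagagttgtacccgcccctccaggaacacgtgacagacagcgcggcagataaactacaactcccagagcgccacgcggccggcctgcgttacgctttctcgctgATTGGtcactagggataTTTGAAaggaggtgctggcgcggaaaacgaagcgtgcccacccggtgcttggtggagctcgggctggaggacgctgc

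In 7 of these 8 windows both kinds of letters were found, with 5 CCAAT matches for *Hmmr* and 4 for *Cdca8*, and the window of *Nuf2* held neither. The start used for *Cdca8* lay 2394 bases inside the gene model and that of *Ncapd2* 115 bases inside it. A CCAAT match was present in 74.0% of the 50 windows, against 37.4% of all 32851 windows of the same length. A CHR match of either form was present in 78.0% against 27.6%, and TTTGAA alone in 70.0% against 17.9%. Both motifs occurred together in 64.0% against 10.7%. At least 2 CCAAT matches were found in 46.0% of the windows against 11.7% of all. In the 14367 windows of tested genes alone the share was 37.4% for CCAAT, 19.9% for either CHR form and 7.87% for both. The letters TATAAA of the TATA box were in 2 of the 50 windows (4.0%), against 13.6% of all windows and 7.58% of those of tested genes. Matches of different motifs may share bases, as in *Cdca8*, and windows of the same gene may overlap, as for *Ect2* and *Prc1*.

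CCAAT matches lay a median of 66 bases before the start (80 matches) and CHR matches a median of 17 bases before it (58 matches). A CHR match between 60 bases before and 50 bases after the start was present in 68.0% of the windows against 9.12% of all. The log2 fold change had a median of -0.37 in the 33 genes with a CCAAT match and -0.32 in the 13 without, and a median of -0.37 in the 37 genes with a CHR match and -0.32 in the 9 without. This difference was not tested. The window of *Pttg1* held neither motif, nor did those of *Nusap1*, *Nuf2*, *Ncaph* and *Mad2l1*, all called lower, and of *Cit*. The start used for *Pttg1* lay 270 bases inside the gene model and that of *Cit* 378 bases inside it. For *Mad2l1* it lay 169 bases before the gene model. Absence of a match says only that these letters are not in the window.

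**Figure D3:**
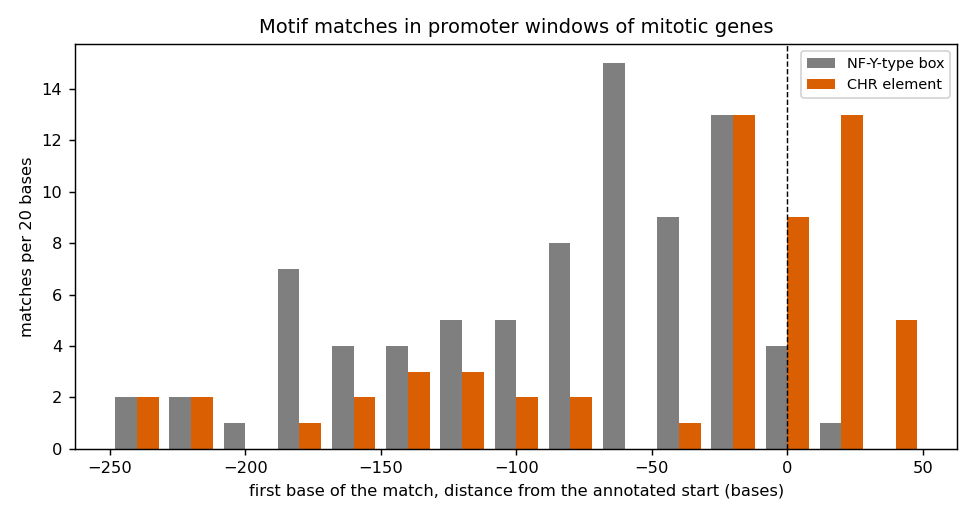
Position of motif matches in the 50 promoter windows of 46 mitotic genes: distance of the first base of the match from the annotated start in bases (x axis) and matches per bin of 20 bases (y axis), for the CCAAT box bound by NF-Y (grey) and for either form of the CHR (orange). CCAAT matches peak before the start, with a median of -66, and CHR matches around it, with a median of -17.

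CDK1 and its partners start mitosis. Of the 6 genes in this group 5 were lower, with a median log2 fold change of -0.33. *Ccna2* (ENSMUSG00000027715, chromosome 3, 36564865 to 36572150), which encodes cyclin A2, was at 205, 196, 209 and 198 CPM across *Nrg1GOF* libraries 1 to 4 and 277, 279.5, 285 and 282 CPM across WT libraries 1 to 4. All 4 *Nrg1GOF* libraries were below every WT library, with group means of 202 ± 6.12 CPM for *Nrg1GOF* against 281 ± 3.60 CPM for WT (SD, n = 4 each) and a log2 change of -0.48 (SE 0.045, adjusted p = 8.66e-05), so that its level fell by 28.1%. *Ccnb1*, the cyclin B1 gene, was at 113, 114, 119 and 114 CPM in the *Nrg1GOF* libraries and 141, 143, 148 and 147 CPM in the WT libraries. The groups were again apart, at group means of 115 ± 2.97 CPM for *Nrg1GOF* against 144 ± 3.29 CPM for WT (SD, n = 4 each), a log2 change of -0.33 (SE 0.046, adjusted p = 0.000680). *Cdc25c* encodes a phosphatase that activates CDK1, and it was low, at 12.6, 11.2, 12.8 and 10.5 CPM in the *Nrg1GOF* libraries and 13.8, 13.3, 14.7 and 16.6 CPM in the WT libraries. Although the groups did not overlap, its log2 fold change was -0.30 (SE 0.10) with an adjusted p of 0.0519, and it was not called. It was called without WT library 2 (-0.34, adjusted p = 0.0465), with only WT libraries 3 and 4 as controls (-0.39, adjusted p = 0.0418, against -0.19 with WT libraries 1 and 2), with relative log expression (RLE) scaling and after thinning. The other 3 genes, *Cdc25b*, *Ccnb2* and *Cdk1*, had log2 fold changes of -0.48 to -0.20. *Cdk1* was the least changed of the called genes, at -0.20 (adjusted p = 0.0132), and lost its call without *Nrg1GOF* library 2 (log2 fold change -0.18, adjusted p = 0.0525), with only WT libraries 3 and 4 as controls (-0.18, adjusted p = 0.0697) and with the WT pairs summed.

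Genes of the spindle and its poles were lower in 6 of 7, with a median of -0.39. *Hmmr* (ENSMUSG00000020330, chromosome 11, 40701395 to 40733422), the gene of a microtubule-binding protein of the spindle, was at 78.6, 73.8, 81.2 and 74.3 CPM across *Nrg1GOF* libraries 1 to 4 and 110.5, 113, 115 and 116 CPM across WT libraries 1 to 4. It gave the lowest fold change of all 54 genes, with group means of 77.0 ± 3.57 CPM for *Nrg1GOF* against 114 ± 2.34 CPM for WT (SD, n = 4 each), a log2 change of -0.56 (SE 0.050, adjusted p = 6.79e-05), and its level fell by 32.2%. *Nusap1*, whose product bundles spindle microtubules, was at 62.8, 58.1, 58.7 and 51.9 CPM in the *Nrg1GOF* libraries and 77.6, 78.0, 80.4 and 81.0 CPM in the WT libraries. No *Nrg1GOF* library reached the WT range (log2 fold change -0.45, SE 0.061, adjusted p = 0.000567). *Plk4* encodes the kinase that starts centriole duplication. Its level was 48.1, 46.9, 45.7 and 39.9 CPM in the *Nrg1GOF* libraries and 53.7, 55.2, 48.4 and 50.2 CPM in the WT libraries, the lowest WT library being only just above the highest *Nrg1GOF* library. With a log2 change of -0.19 (SE 0.070, adjusted p = 0.0635) it was not called. *Aurka*, *Ckap2l*, *Plk1* and *Tpx2* were called, with log2 fold changes of -0.41 to -0.22.

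All 4 genes of the chromosomal passenger complex, which corrects faulty attachments and later acts in cytokinesis, were lower, with a median of -0.37. *Cdca8* (ENSMUSG00000028873, chromosome 4, 124918465 to 124939311), encoding borealin, was at 54.9, 56.2, 54.8 and 63.3 CPM across *Nrg1GOF* libraries 1 to 4 and 73.9, 69.0, 75.3 and 75.4 CPM across WT libraries 1 to 4. The highest *Nrg1GOF* library, library 4, was still below the lowest WT library, at group means of 57.3 ± 4.04 CPM for *Nrg1GOF* against 73.4 ± 3.03 CPM for WT (SD, n = 4 each), a log2 change of -0.36 (SE 0.061, adjusted p = 0.00176). *Aurkb*, the kinase of the complex, was at 32.8, 34.0, 36.5 and 30.6 CPM in the *Nrg1GOF* libraries and 38.1, 41.8, 46.9 and 47.0 CPM in the WT libraries. Its WT libraries 1 and 2 were the lower pair, and the test gave a log2 change of -0.37 (SE 0.082, adjusted p = 0.00789). *Birc5* encodes survivin, which places the complex at centromeres, and was at 41.3, 45.1, 52.0 and 52.9 CPM in the *Nrg1GOF* libraries and 60.3, 55.8, 72.1 and 70.3 CPM in the WT libraries. It showed the same order of WT pairs and the largest fall of the 4, a log2 change of -0.44 (SE 0.10, adjusted p = 0.0109). With WT libraries 1 and 2 as the only controls *Aurkb* and *Birc5* were not called (log2 fold change -0.25 and -0.29, adjusted p = 0.0739 and 0.0886), nor was the scaffold gene *Incenp* (-0.20, adjusted p = 0.0841, against -0.30 with all 4).

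Spindle checkpoint genes were lower in 4 of 4, with a median of -0.38. *Bub1b* (ENSMUSG00000040084, chromosome 2, 118598211 to 118641591), the gene of the checkpoint protein BUBR1, was at 93.5, 87.9, 91.8 and 92.3 CPM across *Nrg1GOF* libraries 1 to 4 and 132, 126, 136 and 133 CPM across WT libraries 1 to 4. The *Nrg1GOF* libraries were close together and lay far below WT, at group means of 91.4 ± 2.43 CPM for *Nrg1GOF* against 132 ± 4.26 CPM for WT (SD, n = 4 each), a log2 change of -0.53 (SE 0.048, adjusted p = 7.00e-05), and the level fell by 30.6%. *Bub1*, a kinase that recruits checkpoint proteins to kinetochores, was at 63.3, 60.3, 64.1 and 59.6 CPM in the *Nrg1GOF* libraries and 78.3, 81.4, 81.5 and 76.6 CPM in the WT libraries. Its fold change was smaller, a log2 change of -0.36 (SE 0.049, adjusted p = 0.000572), with no overlap. *Mad2l1*, encoding the MAD2 protein that binds and blocks CDC20, was at 66.3, 60.7, 60.1 and 54.3 CPM in the *Nrg1GOF* libraries and 75.6, 77.5, 73.0 and 74.3 CPM in the WT libraries, and it was called with a log2 change of -0.31 (SE 0.062, adjusted p = 0.00470). *Ttk*, the kinase MPS1, was called at -0.40 (adjusted p = 0.00324).

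The centromere and kinetochore group held 8 genes, of which 6 were lower, with a median of -0.39. The 4 subunits of the NDC80 complex, the microtubule-binding part of the kinetochore, were all lower, with log2 fold changes of -0.40 for *Ndc80*, -0.40 for *Nuf2*, -0.37 for *Spc24* and -0.42 for *Spc25*. *Nuf2* (ENSMUSG00000026683, chromosome 1, 169497934 to 169531464) was at 46.9, 44.4, 44.1 and 42.5 CPM across *Nrg1GOF* libraries 1 to 4 and 61.4, 56.5, 59.4 and 57.9 CPM across WT libraries 1 to 4, and the groups were separate, at group means of 44.5 ± 1.81 CPM for *Nrg1GOF* against 58.8 ± 2.10 CPM for WT (SD, n = 4 each), with an adjusted p of 0.000413. *Spc25* was at 47.3, 40.4, 41.4 and 40.8 CPM in the *Nrg1GOF* libraries and 56.4, 54.7, 58.2 and 58.6 CPM in the WT libraries. Library 1 was the highest of the *Nrg1GOF* group but still below WT, at group means of 42.5 ± 3.24 CPM for *Nrg1GOF* against 56.9 ± 1.80 CPM for WT (SD, n = 4 each), with an SE of 0.062 and an adjusted p of 0.000884. *Cenpk* belongs to the inner kinetochore and had the highest p of the group. Its values were 8.71, 9.05, 10.2 and 8.38 CPM in the *Nrg1GOF* libraries and 9.17, 9.87, 14.3 and 11.1 CPM in the WT libraries, in which the groups overlapped, and the test gave a log2 change of -0.28 (SE 0.15, adjusted p = 0.183). The log2 fold change was -0.14 without WT library 3, and it was -0.060 (adjusted p = 0.801) with WT libraries 1 and 2 as the only controls and -0.46 (adjusted p = 0.0413, called) with WT libraries 3 and 4. These values rest on 67 to 353 counts per library.

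Motor genes of the kinesin family were lower in 8 of 9, with a median of -0.33. *Kif11* (ENSMUSG00000012443, chromosome 19, 37376403 to 37421859) encodes the motor that pushes spindle poles apart, and was at 116, 101, 112 and 105 CPM across *Nrg1GOF* libraries 1 to 4 and 161, 163, 161 and 156 CPM across WT libraries 1 to 4. It had the largest fall of the motors, a log2 change of -0.56 (SE 0.056, adjusted p = 0.000107), with group means of 109 ± 6.81 CPM for *Nrg1GOF* against 160.1 ± 3.03 CPM for WT (SD, n = 4 each), and its level fell by 32.1%. *Kif4*, a motor that binds chromosomes and the central spindle, was at 66.3, 61.1, 64.2 and 57.0 CPM in the *Nrg1GOF* libraries and 81.6, 80.3, 80.1 and 79.6 CPM in the WT libraries. Here too the groups did not overlap (log2 fold change -0.37, SE 0.055, adjusted p = 0.000974). *Kif15*, which helps to keep the spindle bipolar, was at 35.2, 34.5, 39.7 and 30.3 CPM in the *Nrg1GOF* libraries and 38.0, 41.4, 44.5 and 42.3 CPM in the WT libraries. *Nrg1GOF* library 3 lay inside the WT range, and the gene was not called (log2 fold change -0.24, SE 0.083, adjusted p = 0.0535). It was called without that library (log2 fold change -0.30, adjusted p = 0.0205) or without WT library 1 (-0.28, adjusted p = 0.0411). The likelihood ratio test, DESeq2, RLE scaling and a replicate block also gave a call. The other 6 motors, *Kif2c*, *Kif18b*, *Kif20a*, *Kif20b*, *Kif22* and *Kif23*, had log2 fold changes of -0.41 to -0.28, and all 6 were called. *Kif18b* (-0.28, adjusted p = 0.0208) lost its call without *Nrg1GOF* library 2, WT library 1 or WT library 4 (adjusted p = 0.0632, 0.0519 and 0.0528), against either WT pair (0.0925 and 0.0714) and with scaling by library total. *Kif22* was not called against WT libraries 1 and 2 alone (adjusted p = 0.0505), nor *Kif20b* against WT libraries 3 and 4 alone (adjusted p = 0.0584).

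Cytokinesis genes were lower in 4 of 5, with a median of -0.34. *Racgap1* (ENSMUSG00000023015, chromosome 15, 99620496 to 99651656), which with *Kif23* encodes the centralspindlin complex, was at 117, 112, 124 and 112 CPM across *Nrg1GOF* libraries 1 to 4 and 163, 152, 165 and 163 CPM across WT libraries 1 to 4. The groups were wide apart, at group means of 116 ± 5.60 CPM for *Nrg1GOF* against 161 ± 5.82 CPM for WT (SD, n = 4 each), a log2 change of -0.46 (SE 0.054, adjusted p = 0.000234), and the level fell by 27.5%. Its partner *Kif23* had a log2 change of -0.37 (SE 0.088, adjusted p = 0.0109), and was not called against WT libraries 1 and 2 alone (-0.26, adjusted p = 0.0911) or with the WT pairs summed. *Prc1*, encoding the protein that bundles microtubules of the central spindle, was at 135, 128, 139.8 and 127 CPM in the *Nrg1GOF* libraries and 169, 159.8, 176 and 168 CPM in the WT libraries, with a log2 change of -0.34 (SE 0.053, adjusted p = 0.00121). *Cit* encodes citron kinase of the midbody. It was at 22.5, 24.0, 31.0 and 25.5 CPM in the *Nrg1GOF* libraries and 29.4, 29.3, 33.7 and 33.6 CPM in the WT libraries, so that *Nrg1GOF* library 3 lay within the WT range. It was not called (log2 fold change -0.29, SE 0.10, adjusted p = 0.0610), but was without that library (log2 fold change -0.39, adjusted p = 0.00861), by the likelihood ratio test, by DESeq2 and with a replicate block. With only WT libraries 3 and 4 as controls it was also called (adjusted p = 0.0481), and with WT libraries 1 and 2 it was not (adjusted p = 0.332). *Anln* and *Ect2*, of the contractile ring and its activation, were called at -0.28 and -0.39.

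Condensin and other chromosome structure genes were lower in 5 of 7, with a median of -0.38. *Ncapd2* (ENSMUSG00000038252, chromosome 6, 125168007 to 125191701), a subunit of condensin I, was at 129, 141, 154 and 137 CPM across *Nrg1GOF* libraries 1 to 4 and 192, 192, 222 and 206 CPM across WT libraries 1 to 4. It had the largest fall of the group, a log2 change of -0.54 (SE 0.071, adjusted p = 0.000520), with group means of 140.0 ± 10.4 CPM for *Nrg1GOF* against 203 ± 14.6 CPM for WT (SD, n = 4 each). *Smc4*, an ATPase subunit of both condensins, was at 264, 221, 243 and 233 CPM in the *Nrg1GOF* libraries and 322, 316, 322 and 323 CPM in the WT libraries. The WT libraries were close together and above every *Nrg1GOF* library, and the test gave a log2 change of -0.42 (SE 0.060, adjusted p = 0.000774). Its partner *Smc2* was not called, at -0.14 (SE 0.068) with an adjusted p of 0.150. The condensin I subunits *Ncapg* and *Ncaph* and the topoisomerase gene *Top2a* were called, at -0.45, -0.32 and -0.38. *Mki67* encodes Ki-67, the chromosome coat protein used as a proliferation marker, and was at 406, 305, 359.6 and 312 CPM in the *Nrg1GOF* libraries and 429.8, 494, 353 and 348 CPM in the WT libraries. The groups overlapped and it was not called (log2 fold change -0.23, SE 0.13, adjusted p = 0.214).

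The last group acts at anaphase, and 3 of its 4 genes were lower, with a median of -0.32. *Espl1* (ENSMUSG00000058290, chromosome 15, 102296266 to 102324357), the gene of separase, was at 35.9, 36.4, 45.6 and 37.6 CPM across *Nrg1GOF* libraries 1 to 4 and 53.1, 54.6, 53.7 and 55.8 CPM across WT libraries 1 to 4. Library 3 was the highest of the *Nrg1GOF* group and still below WT, at group means of 38.9 ± 4.54 CPM for *Nrg1GOF* against 54.3 ± 1.18 CPM for WT (SD, n = 4 each), a log2 change of -0.48 (SE 0.078, adjusted p = 0.00150). *Cdc20*, the activator of the APC/C in mitosis, was at 67.3, 73.3, 73.1 and 83.9 CPM in the *Nrg1GOF* libraries and 91.03, 90.1, 96.1 and 97.2 CPM in the WT libraries, with a log2 change of -0.34 (SE 0.069, adjusted p = 0.00522). *Ube2c*, its ubiquitin-conjugating enzyme, was called at -0.30. *Pttg1* (ENSMUSG00000020415, chromosome 11, 43420250 to 43426251) encodes securin, the inhibitor of separase, and was the 1 gene of the 54 with a value above 0. It was at 29.0, 30.2, 28.9 and 35.1 CPM across *Nrg1GOF* libraries 1 to 4 and 21.9, 23.1, 27.9 and 29.8 CPM across WT libraries 1 to 4. The *Nrg1GOF* libraries lay above WT libraries 1 and 2 and overlapped WT libraries 3 and 4, at group means of 30.8 ± 2.94 CPM for *Nrg1GOF* against 25.7 ± 3.76 CPM for WT (SD, n = 4 each). Its log2 fold change was 0.25 (SE 0.11) with an adjusted p of 0.112, so it was not called. With WT libraries 1 and 2 as the only controls it was called higher (0.44, adjusted p = 0.0146), and with WT libraries 3 and 4 it was not called (0.092, adjusted p = 0.501).

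**Figure D4:**
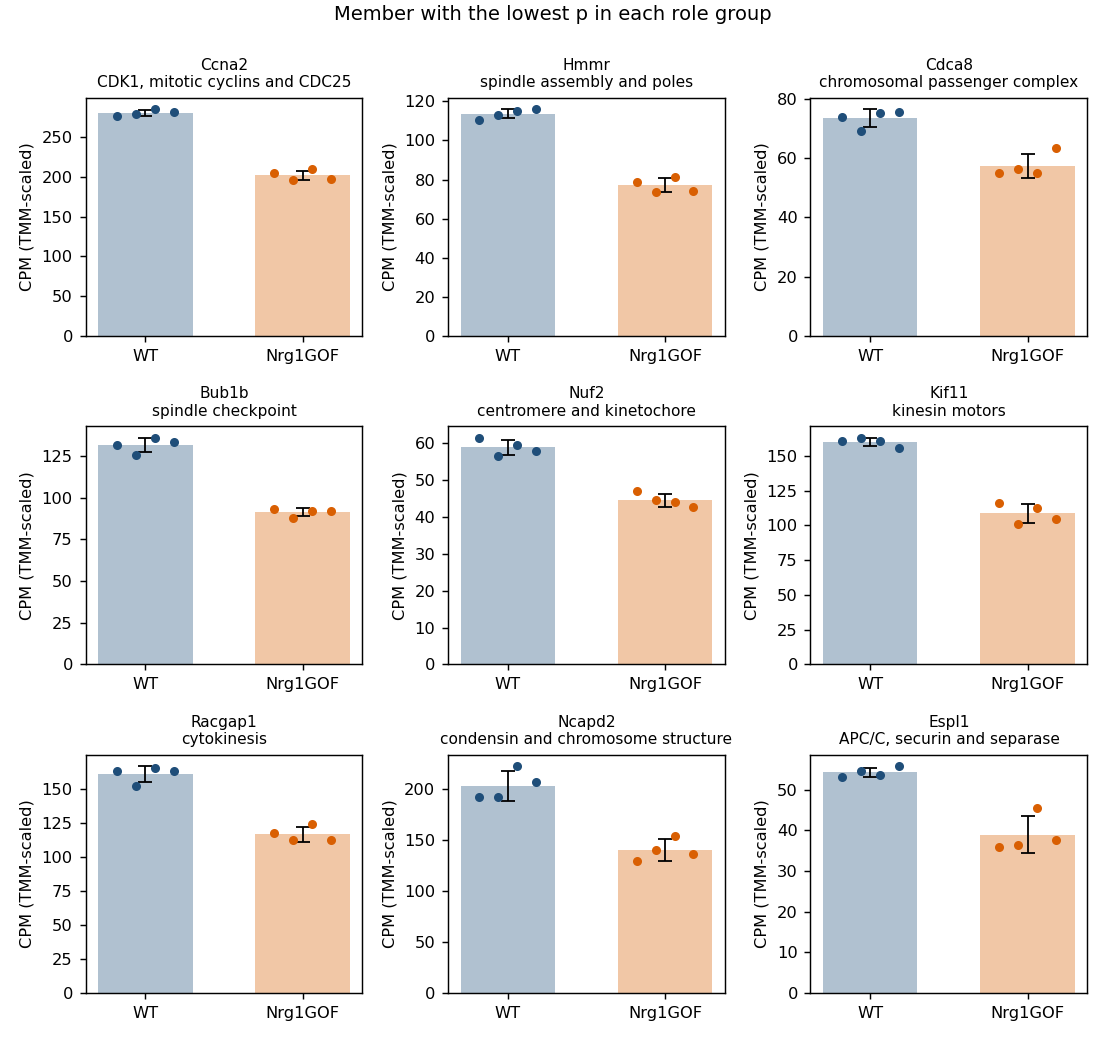
Level in CPM (y axis, from 0) of the gene with the lowest p in each of the 9 role groups, in WT and *Nrg1GOF*; bars are means, error bars SD (n = 4) and points single libraries. In each panel every *Nrg1GOF* point lies below every WT point, and the fitted change is smallest for *Cdca8* (a level that fell by 22.2%) and largest for *Hmmr* (fell by 32.2%).

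Set side by side, kinetochore, motor, cytokinesis and condensin genes had medians of -0.39, -0.33, -0.34 and -0.38. Averaged per library relative to the WT mean, the *Nrg1GOF* libraries spanned -0.44 to -0.31 for kinetochore genes, -0.43 to -0.23 for motors, -0.42 to -0.24 for cytokinesis genes and -0.43 to -0.27 for condensin and chromosome structure genes. These ranges overlapped, the libraries were the same, and no test between role groups was made. In each of the 9 groups the mean of every *Nrg1GOF* library was below that of every WT library. The gap was narrowest in the group of APC/C, securin and separase, where *Nrg1GOF* library 4 was at -0.093 and the lowest WT library at -0.078.

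In *Cenpa*, *Cenpk*, *Smc2*, *Mki67* and *Pttg1* the difference between the WT pairs was larger in size than that between genotypes. WT libraries 1 and 2 were both above WT libraries 3 and 4 in 11 of the 54 genes and both below in 30 (30.6% and 31% of all tested genes). The difference of their mean log2 CPM ran from -0.57 for *Cenpa* to 0.51 for *Cenpf*. Across the 54 genes it rose with the length of the longest transcript (Spearman's rho 0.49, and 0.18 over all tested genes), a description of genes measured in the same 4 libraries. *Cenpa*, the centromeric histone, was at 62.0, 66.8, 86.9 and 77.3 CPM in the *Nrg1GOF* libraries and 74.4, 75.9, 108 and 115 CPM in the WT libraries. The *Nrg1GOF* libraries lay around the lower WT pair and below the higher pair, and *Cenpa* was not called (log2 fold change -0.35, SE 0.16, adjusted p = 0.134). Its log2 fold change was -0.042 against WT libraries 1 and 2 and -0.60 against WT libraries 3 and 4 (adjusted p = 0.00803).

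*Cenpf*, a large kinetochore protein, had the opposite order of WT pairs, at 162, 120.1, 130.3 and 125 CPM in the *Nrg1GOF* libraries and 214, 236, 155 and 161 CPM in the WT libraries. It was called with all 4 controls (log2 fold change -0.51, SE 0.15, adjusted p = 0.0264) though the groups overlapped. Against WT libraries 3 and 4 alone it was not (-0.23, adjusted p = 0.177), nor without *Nrg1GOF* library 2, 3 or 4 or WT library 1 or 2 (adjusted p = 0.0832, 0.0630, 0.0701, 0.0665 and 0.0606). *Mki67* had a log2 fold change of -0.42 (adjusted p = 0.0405) against WT libraries 1 and 2 and -0.013 (adjusted p = 0.948) against WT libraries 3 and 4. The fall of *Cenpe*, a kinetochore motor (-0.27, adjusted p = 0.0324), was also not called without *Nrg1GOF* library 2 or 4 or WT library 1, 2 or 3 (adjusted p = 0.0945, 0.0883, 0.0599, 0.0759 and 0.0614) or against either WT pair (0.0683 and 0.140), nor after thinning or with scaling by library total. *Cenpa*, *Cenpf* and *Cenpe* were chosen for description after their values were seen. For all 54 genes together, 39 were lower against WT libraries 1 and 2 and 44 against WT libraries 3 and 4, and 37 when each pair was summed to 1 sample. Of all tested genes 8.13%, 11.6% and 5.67% were called lower in these fits, against 12.8% in the main fit. The 8 calls lost with the WT pairs summed were those of *Cdk1*, *Tpx2*, *Cenpe*, *Cenpf*, *Kif18b*, *Kif20b*, *Kif23* and *Ube2c*.

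**Figure D5:**
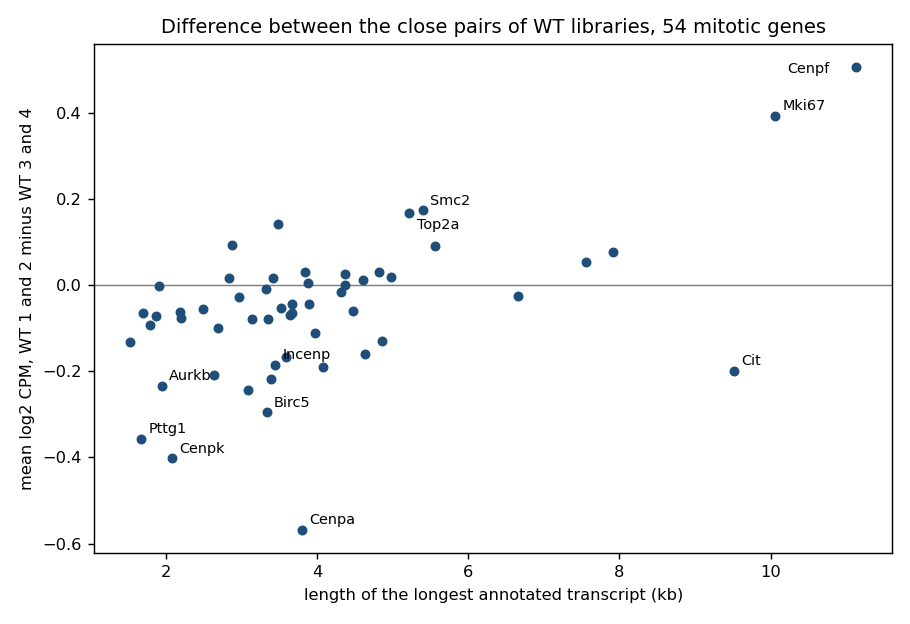
Length of the longest annotated transcript in kb (x axis) and mean log2 CPM of WT libraries 1 and 2 minus that of WT libraries 3 and 4 (y axis) for the 54 mitotic genes, 1 point per gene. Values run from -0.57 for *Cenpa* to 0.51 for *Cenpf*, and the 2 genes with transcripts above 10 kb, *Cenpf* and *Mki67*, lie highest.

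Another 137 genes of mitosis and its regulation, outside the 54, were examined in the same fit. Of these, 57 (41.6%) were lower and 2 higher, with a median log2 fold change of -0.23, where all tested genes gave 12.8% lower and 15.9% higher. Other kinetochore and centromere genes were lower in 19 of 34, led by *Sgo2a* (-0.60, SE 0.063), a guardian of cohesion at centromeres, *Spdl1* (-0.50, SE 0.079), which brings dynein to kinetochores, and the inner kinetochore gene *Cenpl* (-0.46, SE 0.10). Among other spindle and centrosome genes 11 of 26 were lower, with *Fam83d* at -0.52 (SE 0.066), *Haus8*, of the augmin complex, at -0.52 (SE 0.088) and *Troap* at -0.49 (SE 0.16). The cohesin acetyltransferase gene *Esco2* had the largest fall of the 137, a log2 change of -0.71 (SE 0.075, adjusted p = 0.000133), followed in its group of 11 by the cohesin subunit gene *Rad21* (-0.41, SE 0.055) and the condensin II subunit gene *Ncapd3* (-0.28, SE 0.059), with 4 of the 11 lower. Genes of mitotic entry and exit were lower in 8 of 18, among them *Wee1* (-0.58, SE 0.061), the kinase that holds CDK1 inactive, *Cdca3* (-0.42, SE 0.091) and the kinase gene *Melk* (-0.41, SE 0.068).

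Other checkpoint genes were lower in 2 of 4 (*Trip13* -0.30 and *Mad1l1* -0.22, the partner of MAD2), other kinesins in 1 of 5 (*Kifc1* -0.37, a minus-end motor) and other cytokinesis genes in 3 of 8 (*Aspm* -0.52, *Cntrl* -0.33, *Cep55* -0.30), while *Sept9* was higher (0.29). Subunits and regulators of the APC/C and its enzymes other than *Cdc20* and *Ube2c* had a median of -0.028, with the APC/C inhibitor gene *Fbxo5* (-0.29) and *Anapc7* (-0.27) lower, *Cdc16* higher (0.27) and 12 of 15 not called. Its share of lower genes, 13.3%, was near the 12.8% of all tested genes.

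Regulators of mitotic transcription were lower in 7 of 16 and higher in 0. *Lin9*, a subunit of the MuvB core, went from 24.2 to 18.4 CPM (log2 fold change -0.39, SE 0.078, adjusted p = 0.00497). *Foxm1*, the transcription factor of G2 genes, went from 84.7 to 65.4 CPM (log2 fold change -0.37, SE 0.10, adjusted p = 0.0230). Its groups overlapped, with *Nrg1GOF* library 3 at 77.7 CPM and WT libraries 1 to 4 at 74.5, 78.6, 93.8 and 91.9 CPM. *Nfyc*, a subunit of NF-Y, went from 93.7 to 74.0 CPM (log2 fold change -0.34, SE 0.062, adjusted p = 0.00269). The NF-Y genes *Nfya* and *Nfyb* were not called, at -0.0049 and 0.083. DNA replication genes, which act before mitosis, were lower in 28 of 43 (65.1%) and higher in 0, with a median of -0.23, and their summed level was 2270 to 2350 CPM in *Nrg1GOF* and 2754 to 2861 CPM in WT. *Gins1* (-0.65, SE 0.10), a subunit of the replicative helicase, *Rrm2* (-0.52, SE 0.047) of ribonucleotide reductase and *Prim1* (-0.47, SE 0.063) of primase led that list. The difference in share and median between the 54 mitotic genes, the other 137 and the 43 replication genes was not tested.

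Of the 54 genes, 15 share exon sequence with a gene on the opposite strand, and their values are uncertain to that extent, as the strand setting used in counting is not given in the sources used here. They include *Ccna2*, *Cdc25c*, *Nusap1*, *Cdca8*, *Cenpk*, *Kif4*, *Prc1* and *Cdc20* among the genes given in full, and the longest overlap, of 1271 bases, is that of *Kif20a* with *Cdc23*. Copies of the 54 genes annotated as pseudogenes, within the match limits given below, were at or below 0.75 CPM. Adding their counts to the parent gene left 45 genes called lower. Partial matches outside these limits, such as that of *Kif11* with *Gm15697* over 1691 bases, were not examined.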

How the data were processed

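Poly(A) RNA of E15.5 heart ventricles was sequenced from 4 *Nrg1GOF* and 4 WT samples, grouped by their titles. Directional libraries were made from 100 ng of RNA and read as single reads of 60 bases. The values deposited by the authors are expected counts from RSEM, which divides a read that fits several genes, so they need not be whole. According to the submitters' processing notes, cutadapt and RSEM 1.3.1 were used with GRCm38, and the table is named for Ensembl release 91. The aligner and strand setting are not given in the sources used here. Reads carried no molecular identifiers, so floors cover counting error only.

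Expected counts were rounded, filtered with filterByExpr and scaled with the TMM method of edgeR 4.0.16 (R 4.3.3). *Nrg1GOF* was compared with WT by the two-sided quasi-likelihood F-test, with no covariate beside genotype. For its model the study names edgeR and a generalized linear model, with no further detail. Benjamini-Hochberg adjustment covered all 15580 tested genes. CPM used TMM-scaled library sizes, and the SE was taken from the fold change and F (size of the log2 change over the root of F). Coordinates and exon lengths came from GENCODE M21 (GRCm38).

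The 54 genes, their 9 role groups and all other lists were chosen with earlier results of these data known. In each group the 2 genes with the lowest p and the gene with the highest p were given in full, and of each other list up to 3 called genes with the largest change. Alternatives were the likelihood ratio test, DESeq2 1.42.0, limma-voom (limma 3.58.1), 3 scalings, 2 filters, unrounded counts, thinning, a threshold of 0.01, other role assignments, the replicate number as a block, WT pairs summed or used alone, and leaving out each library. Adding copies annotated as pseudogenes to their parent gene was chosen after seeing the data. These were found by BLAST+ 2.17.0, with a match that had 90% identity or more and spanned at least 80% of the copy and at least 200 bases.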

Additional observations from a re-analysis of the deposited data

Results flagged for a closer look

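Values were set apart when, in a group of 4 libraries, the gap from the highest or lowest library to the next exceeded the critical share of the range in Dixon's test at 95%. Of 58 groups of values checked, 3 were set apart, where chance at about 1 in 20 gives 2.9.

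The total of *Nrg1GOF* library 4 was 8038641 counts (8038600 when rounded), against 20578000 to 22548000 in the other 3 libraries of its group, a gap of 0.864 of the range. *Spc25* was at 47.3 CPM in *Nrg1GOF* library 1, against 40.4 to 41.4 CPM in the other 3 (0.865 of the range), and was called lower without that library too. *Smc4* was at 316 CPM in WT library 2, against 322 to 323 CPM in the other 3 WT libraries (0.846 of the range).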

How the results depend on the processing

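Of 949 values recomputed under 23 alternative fits, a stricter threshold and other role assignments, 919 kept their direction and side of the threshold or stayed close, 8 moved, 20 strengthened, 2 weakened and 0 reversed. In all 23 fits 53 of the 54 genes had a log2 fold change below 0, and 33 were called lower in every one. All tested genes gave 2464 calls with the WT pairs summed and 2535 at a threshold of 0.01, against 4467. The number of the 54 genes called lower was 47 by the likelihood ratio test and by DESeq2, 45 by limma-voom, 43 with scaling by library total, 37 with the WT pairs summed and 39 or 44 against WT libraries 1 and 2 or 3 and 4 alone. Of all tested genes 12.8%, 13.4% and 13.1% were lower by the likelihood ratio test, DESeq2 and limma-voom. The share was 9.76% with scaling by library total, 5.67% with the WT pairs summed and 8.13% or 11.6% against those pairs alone. The cause was not tested. Role group medians moved to -0.34 for spindle genes with scaling by library total, to -0.27 for the chromosomal passenger complex against WT libraries 1 and 2, and to -0.39 for CDK1 and its partners against WT libraries 3 and 4. Leaving out each library gave 3239 to 4261 calls over all genes, 41 to 46 of the 54 genes lower, a median of -0.38 to -0.34 for the 54 genes and of -0.41 to -0.34 for spindle genes. Same-numbered libraries of the groups deviated together only weakly (mean correlation 0.111, from 0.049 to 0.199), and 4 of the 8 libraries correlated best with their own number. A fit with a replicate block gave 4524 calls over all genes, with 13.6% of all tested genes lower. In it 49 of the 54 genes were lower, with *Cenpa*, *Cit*, *Kif15* and *Plk4* gained, and 1, *Pttg1*, was higher (log2 fold change 0.27, adjusted p = 0.0361). The lowest count of the 54 genes was 67, for *Cenpk* in *Nrg1GOF* library 4, and what depth added to its spread was not tested.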
